A study of Mus musculus with 6 samples.

Results

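The genes described here encode the subunits, activators, assembly factors and inhibitor of the proteasome. They were chosen by symbol alone, as the genes whose names begin with Psma, Psmb, Psmc, Psmd, Psme, Psmf or Psmg followed by a number, which gave 51 of the 33696 genes counted. The proteasome is the barrel-shaped protease that degrades proteins tagged with ubiquitin. Alpha subunits form the outer rings of the 20S core, beta subunits form the inner rings and carry the proteolytic sites, and the 19S cap uses ATPases and ubiquitin receptors to unfold and admit substrates, the whole being the 26S proteasome. Interferon signalling is known to replace the constitutive catalytic subunits Psmb5, Psmb6 and Psmb7 with the immune subunits Psmb8, Psmb9 and Psmb10, which yields the immunoproteasome and shapes the peptides presented on MHC class I molecules.

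The data are droplet-based 3′ single-cell RNA sequencing of mouse Achilles tendon. All animals were Gli1-CreERT2; Ai9 mice given tamoxifen, so that cells in which the Gli1 promoter had driven Cre carry a red fluorescent reporter. The label marks cells that expressed Gli1 while tamoxifen acted, and their progeny, whether or not they express Gli1 at harvest. Tendons were taken from uninjured mice, or 7 or 21 days post injury (dpi) by tenotomy, surgical transection of the tendon, and were sorted into Gli1+ and Gli1- cells. This gave 6 libraries, 1 per condition, from 24 mice with 8 per time group, and the uninjured controls carry the same alleles and tamoxifen as the injured mice. The age of the mice is not in the labels, and a library holds the cells of pooled mice with no tag for the animal. With 1 library per condition there is no replicate check, so no test was made, and every interval given is a 95% interval that covers counting error only.

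The upstream sequences of the genes that the comparison of catalytic subunits turns on are shown first. They are the 250 bases before the annotated start in RefSeq (build GRCm38.p6), read 5′ to 3′ on the coding strand, for immune Psmb8 (chr17:34197945-34198194, plus strand) and Psmb9 (chr17:34187331-34187580, minus strand) and for constitutive Psmb5 (chr14:54617996-54618245, minus strand) and Psmb6 (chr11:70525107-70525356, plus strand). Capitals mark letter matches to one of the motifs searched on both strands, namely TTCNNNGAA, the core of STAT sites, in Psmb8, CCAAT, here on the reverse strand, in Psmb9, and TGACNNNGC, the core of antioxidant response elements, in Psmb5 and Psmb6.
Psmb8: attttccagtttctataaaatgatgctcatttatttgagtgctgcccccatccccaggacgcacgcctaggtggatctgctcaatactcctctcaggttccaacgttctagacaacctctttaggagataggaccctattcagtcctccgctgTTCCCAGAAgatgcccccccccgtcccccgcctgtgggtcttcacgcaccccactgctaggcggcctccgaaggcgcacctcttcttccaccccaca
Psmb9: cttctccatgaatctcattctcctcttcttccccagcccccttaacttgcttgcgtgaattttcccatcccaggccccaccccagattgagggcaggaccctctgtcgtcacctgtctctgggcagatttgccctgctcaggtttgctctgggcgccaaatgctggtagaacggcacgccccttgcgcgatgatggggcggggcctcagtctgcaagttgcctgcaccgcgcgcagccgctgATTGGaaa
Psmb5: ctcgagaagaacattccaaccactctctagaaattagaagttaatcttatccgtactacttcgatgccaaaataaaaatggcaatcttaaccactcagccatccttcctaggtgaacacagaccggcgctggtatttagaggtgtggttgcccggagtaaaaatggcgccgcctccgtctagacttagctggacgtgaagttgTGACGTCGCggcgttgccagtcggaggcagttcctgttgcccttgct
Psmb6: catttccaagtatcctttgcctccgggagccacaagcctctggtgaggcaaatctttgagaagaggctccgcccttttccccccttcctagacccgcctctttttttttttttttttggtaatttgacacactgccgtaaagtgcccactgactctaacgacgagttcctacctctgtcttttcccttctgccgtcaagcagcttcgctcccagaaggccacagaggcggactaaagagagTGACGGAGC
Psmb9 and Tap1, a peptide transporter of the antigen presentation pathway, start 226 bases apart on opposite strands, so their windows overlap. Of the 51 genes, 43 had an entry, with a window from 250 bases before to 50 bases after the start. TGACNNNGC was in 6 of the 43 windows against 14% of all RefSeq genes in the table, and 4 of the 6 were constitutive 26S genes (Psmb5, Psmb6, Psmc6 and Psmd12). The core of the interferon-stimulated response element, GAAA, any 2 bases and GAAA, was in 5 of 43 (Psmb3, Psmd4, Psmd9, Psme1 and Psmg4) against 3.99%. TTCNNNGAA was in 3 (Psmb8, Psmd2 and Psmg1) against 9.55%, and CCAAT was in 16 against 41.1%. The window of Psmb10 held none of these letters. The matches describe letters in these windows and were not related to binding.

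After filtering, 7057, 9250 and 9780 Gli1+ cells (uninjured, 7 and 21 dpi) and 10882, 9931 and 10867 Gli1- cells remained, with 52496726 to 106399023 unique molecular identifiers (UMIs, counts of captured transcripts) per library and a median of 4266 to 9699 per cell. Library pairs shared 27 to 75 cell barcodes, at most 0.534% of the smaller library. Clusters were named from marker genes, and mesenchymal-like cells (2230, 6794 and 8068 Gli1+; 5859, 8048 and 7632 Gli1-) are the class in which the conditions are compared. The Gli1+ uninjured library stood apart, since 3823 of its cells (54.2%) fell in leukocyte-like clusters against 1 cell of all the other libraries, so its whole-library values are given beside those of mesenchymal-like cells. The labels give equal numbers of each sex, but the share of cells with UMIs of Xist and of no Y-linked gene was 69.4%, 0.0108% and 92.6% in Gli1+ cells and 0%, 0.0101% and 90.7% in Gli1- cells (uninjured, 7 and 21 dpi). Sex and time therefore cannot be told apart in the comparisons of 21 with 7 dpi in either sort, nor in that of Gli1- 21 dpi with Gli1- uninjured cells. Levels are UMIs summed over cells per 1000000 UMIs (CPM), and a gene was counted as higher or lower when its log2 ratio was at least 0.58 from 0. Of the 51 genes, 48 passed the filter of a mean of 5 CPM over the libraries. Psma8, a testis alpha subunit, and Psmb11, a thymus beta subunit, stayed under 1 CPM in every library. Psme2b, a near copy of Psme2 whose reads the counting could lose, reached 0.303 to 4.61 CPM. Psmc3ip and Psme3ip1 match the naming rule but are named as interacting proteins and encode no subunit.

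The constitutive 26S genes, 31 in all, were as a group higher after injury in both sorts. In Gli1+ mesenchymal-like cells their summed level was 2637 CPM uninjured, 4546 at 7 dpi and 4012 at 21 dpi, and in Gli1- cells 2729, 4263 and 4031 CPM. In the comparison of Gli1+ 7 dpi with uninjured cells, 21 of the 31 were higher by the fold and 0 lower, with a median log2 ratio of 0.77 against -0.13 over all genes tested, of which 20.1% were higher. At 21 dpi 14 of 31 were higher (median 0.53; all genes -0.23, 13.6% higher). In Gli1- cells 17 of 31 were higher at 7 dpi (median 0.63; all genes -0.03, 21.6% higher) and 16 of 31 at 21 dpi (median 0.60; all genes -0.08, 18.3% higher), again with 0 lower. Of these comparisons, that of Gli1- 21 dpi with uninjured cells is one where sex cannot be told apart from time. The median of the 26S genes lay above that of 80.3 to 84.9% of all genes in these comparisons. With trimmed-mean scaling in place of totals, 28 of 31 were higher in Gli1+ cells at 21 dpi, where 31.1% of all genes were, and with every cell weighted the same 5 of 31 were higher in Gli1- cells at 21 dpi, where 17.2% were.

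Each part of the particle showed the same direction in its median. Among the 7 beta subunits of the core, 6 were higher in each of the 4 comparisons with uninjured cells, with medians of 0.72 to 0.95. Among the 7 alpha subunits, which gate the core, 5 were higher in Gli1+ cells at 7 dpi and 3 in each of the others (medians 0.52 to 0.77). The 6 ATPases of the cap, which unfold substrates, had 5 and 2 higher in Gli1+ cells and 4 and 2 in Gli1- cells at 7 and 21 dpi (medians 0.36 to 0.86). The 11 other cap subunits had 5, 3, 4 and 5 higher in Gli1+ cells at 7 and 21 dpi and then in Gli1- cells (medians 0.43 to 0.58). Of all genes 20.1%, 13.6%, 21.6% and 18.3% were higher in that order.

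**Figure D1:**
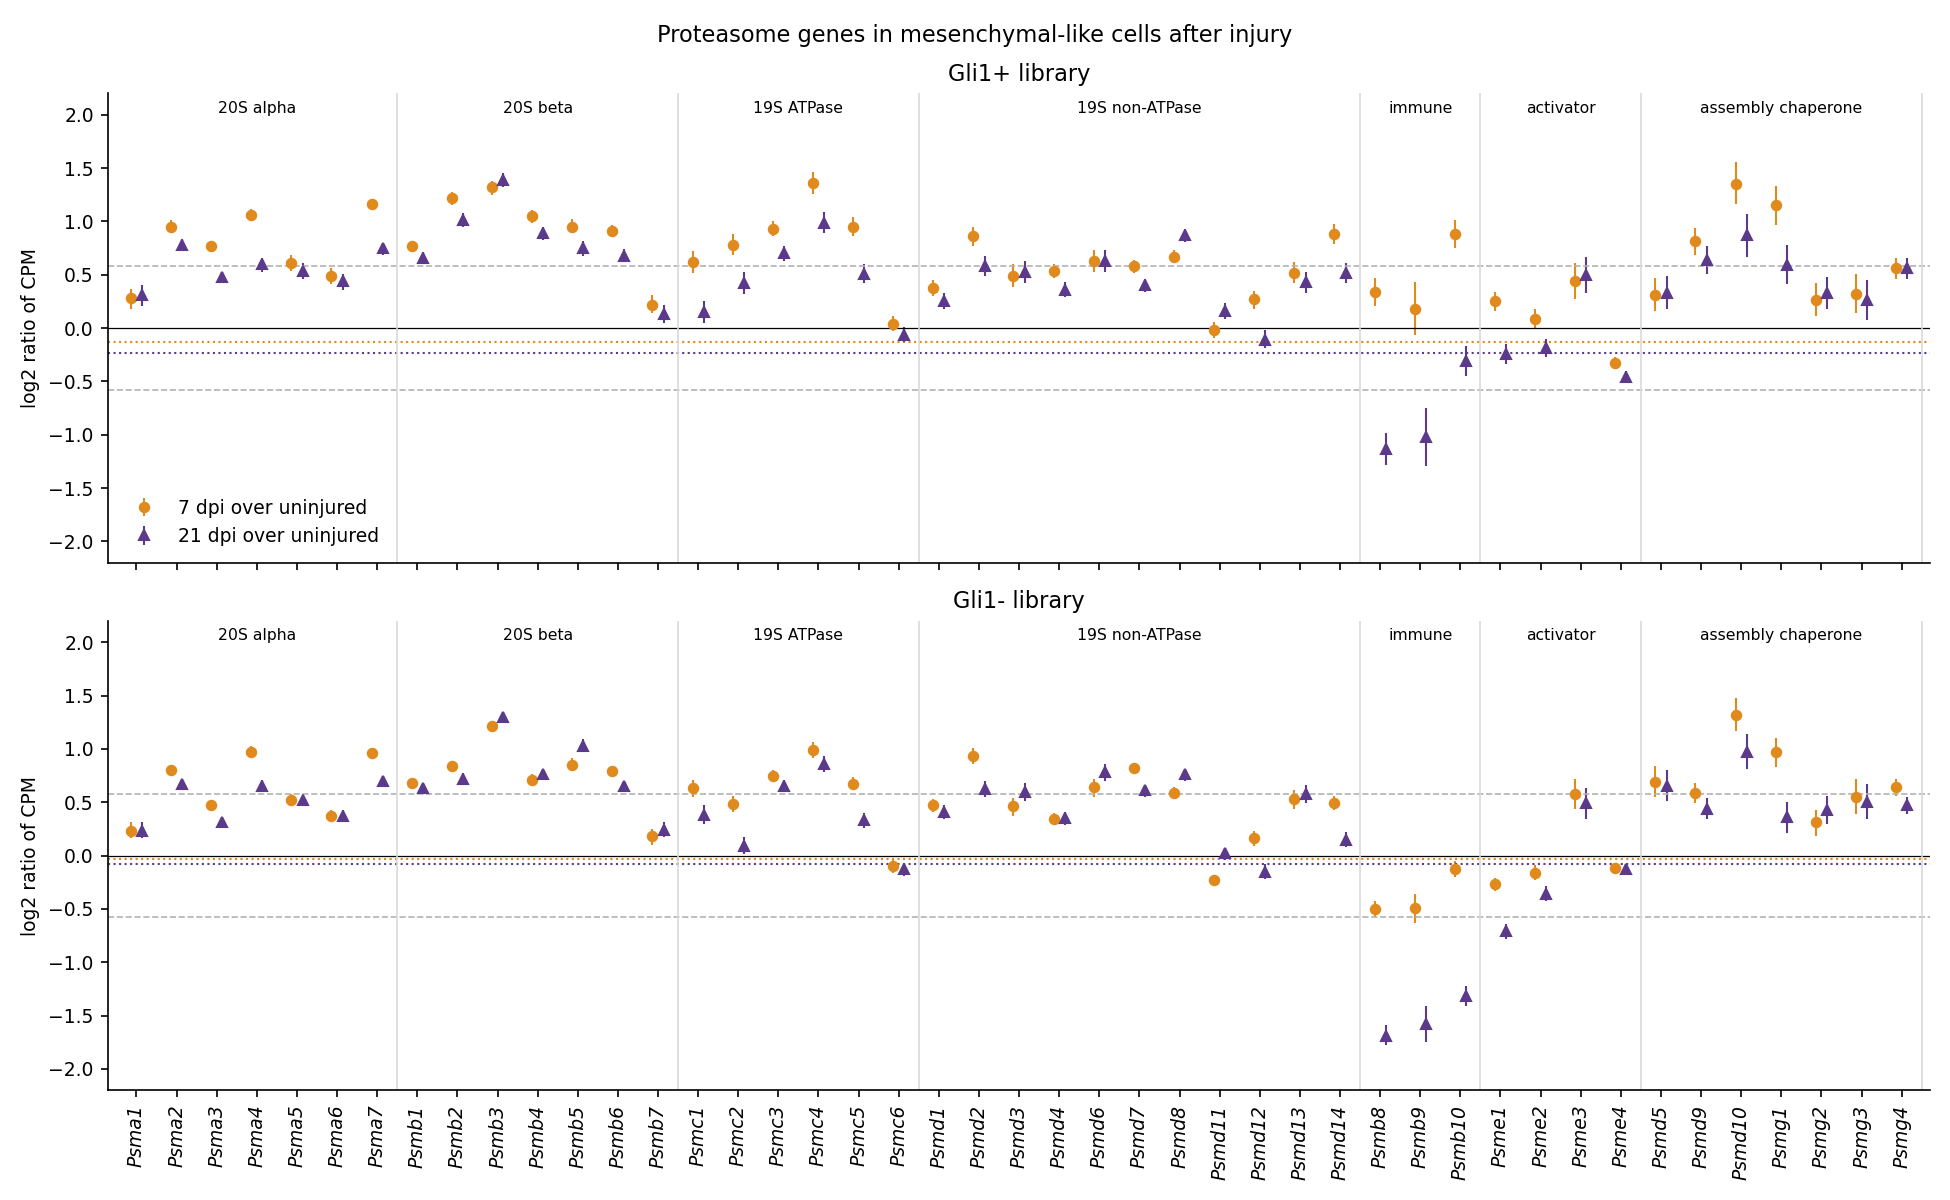
Log2 ratio of each proteasome gene in mesenchymal-like cells, 7 or 21 dpi over uninjured, by sort and role, with the fold of 0.58 and the median of all genes drawn as lines. The constitutive 26S genes lie mostly above 0, and the immune subunits Psmb8, Psmb9 and Psmb10 are below 0 at 21 dpi in both sorts.

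The members did not move by the same amount. Psmb3, a structural beta subunit, was among the highest in all 4 comparisons. It stood at 95.1, 237 and 248 CPM among Gli1+ cells against 105, 244 and 258 CPM among Gli1- cells (uninjured, 7 and 21 dpi, the order used throughout), log2 ratios of 1.32 and 1.39 in Gli1+ against 1.21 and 1.30 in Gli1- cells at 7 and 21 dpi. Psmc4, an ATPase of the cap, stood at 39.3, 101 and 78.1 CPM among Gli1+ cells against 45.6, 90.4 and 82.5 CPM among Gli1- cells (1.36 and 0.99; 0.99 and 0.86). Every injured library was above both uninjured ones for these genes. The third of the highest was Psmb2, a structural beta subunit, in Gli1+ cells (1.22 at 7 and 1.01 at 21 dpi), Psma4, an alpha subunit, in Gli1- cells at 7 dpi (0.97) and Psmb5, which carries the chymotrypsin-like site, in Gli1- cells at 21 dpi (1.03).

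The lowest members stayed within the fold. Psmc6, an ATPase, stood at 93.5, 96.3 and 89.9 CPM among Gli1+ cells against 95.2, 88.8 and 87.3 CPM among Gli1- cells. The 6 values lie close together, with log2 ratios at 7 and 21 dpi of 0.04 and -0.06 in Gli1+ against -0.10 and -0.13 in Gli1- cells. In Gli1+ cells at 7 dpi the ratio was -0.03 with every cell weighted the same, and the negative ones were 0.39, 0.00 and 0.06 under trimmed-mean scaling. Psmd11, a scaffold of the cap, stood at 90, 88.8 and 101 CPM among Gli1+ cells against 97.7, 83.1 and 98.8 CPM among Gli1- cells. Its log2 ratio was -0.02 in Gli1+ cells at 7 dpi (0.26 under trimmed-mean scaling), 0.02 in Gli1- cells at 21 dpi (-0.03 with every cell weighted the same) and -0.23 in Gli1- cells at 7 dpi. Psmd12, another scaffold, had -0.11 in Gli1+ against -0.15 in Gli1- cells at 21 dpi, which become 0.34 and 0.03 under trimmed-mean scaling, and 0.16 in Gli1- cells at 7 dpi. Psmb7, which carries the trypsin-like site, completed the lowest in Gli1+ cells with 0.22 at 7 and 0.13 at 21 dpi.

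Between the injured times no 26S gene passed the fold. For 21 over 7 dpi the median was -0.17 in Gli1+ cells (all genes -0.08, 8.33% higher and 11.6% lower) and -0.06 in Gli1- cells (all genes -0.07, 7.72% higher and 8.91% lower). The highest were Psmd8 (0.20), Psmd11 (0.18) and Psmb3 (0.07) in Gli1+ and Psmd11 (0.25), Psmb5 (0.18) and Psmd8 (0.16) in Gli1- cells. The lowest were Psmc1 (-0.47), Psma4 (-0.46) and Psmc5 (-0.44) in Gli1+ and Psmc2 (-0.40), Psmd14 (-0.35), the deubiquitinase of the cap, and Psmc5 (-0.34) in Gli1- cells. These ratios share the 7 dpi libraries with the comparisons above, and sex differs with time in them.

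Between the sorts no 26S gene passed the fold at any time either. The median Gli1+ over Gli1- log2 ratio was -0.02 uninjured (all genes 0.09, 15.5% higher and 7.98% lower) and 0.10 at 7 dpi (all genes 0.02, 1.98% higher and 2.64% lower). At 21 dpi 0.693% of all genes were higher and 1.62% lower. Uninjured, the highest were Psmd7 (0.25), Psmb5 (0.17) and Psmd1 (0.17) and the lowest Psmb2 (-0.32), Psmd14 (-0.28) and Psma3 (-0.22). At 7 dpi they were Psmb5 (0.28), Psmd4 (0.18), a ubiquitin receptor, and Psmb7 (0.17), against Psmd2 (-0.06), Psmb3 (-0.04) and Psma6 (-0.04). At 21 dpi they were Psmd8 (0.16), Psmc2 (0.14) and Psmd14 (0.09), against Psmb5 (-0.10), Psma6 (-0.09) and Psmc4 (-0.08).

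The catalytic subunits show where the constitutive and immune sets part. In mesenchymal-like cells Psmb5 stood at 90, 174 and 152 CPM among Gli1+ cells against 79.8, 144 and 163 CPM among Gli1- cells. Psmb6, which carries the caspase-like site, stood at 115, 216 and 184 (Gli1+) against 118, 205 and 186 CPM (Gli1-). Psmb7 stood at 63.7, 74.3 and 69.7 (Gli1+) against 58.4, 66 and 69 CPM (Gli1-). All 3 were lowest in the uninjured library of each sort, Psmb7 by the smallest margin.

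The immune subunits followed another order. Psmb8, the immune counterpart of Psmb5, stood at 27.6, 35 and 12.6 CPM among Gli1+ cells against 62.8, 44.3 and 19.5 CPM among Gli1- cells. Psmb9, the counterpart of Psmb6, stood at 8.24, 9.34 and 4.06 (Gli1+) against 19.3, 13.7 and 6.48 CPM (Gli1-). Psmb10, the counterpart of Psmb7, stood at 25.4, 46.6 and 20.5 (Gli1+) against 58.3, 53.4 and 23.4 CPM (Gli1-). Over the 6 libraries all 3 were highest in Gli1- uninjured cells. Within the Gli1+ sort each was highest at 7 dpi, and in both sorts each was lowest at 21 dpi. The widest counting interval among the catalytic and activator genes, that of Psmb9 in Gli1+ uninjured cells with 184 UMIs, reached 15.5% from its value.

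**Figure D2:**
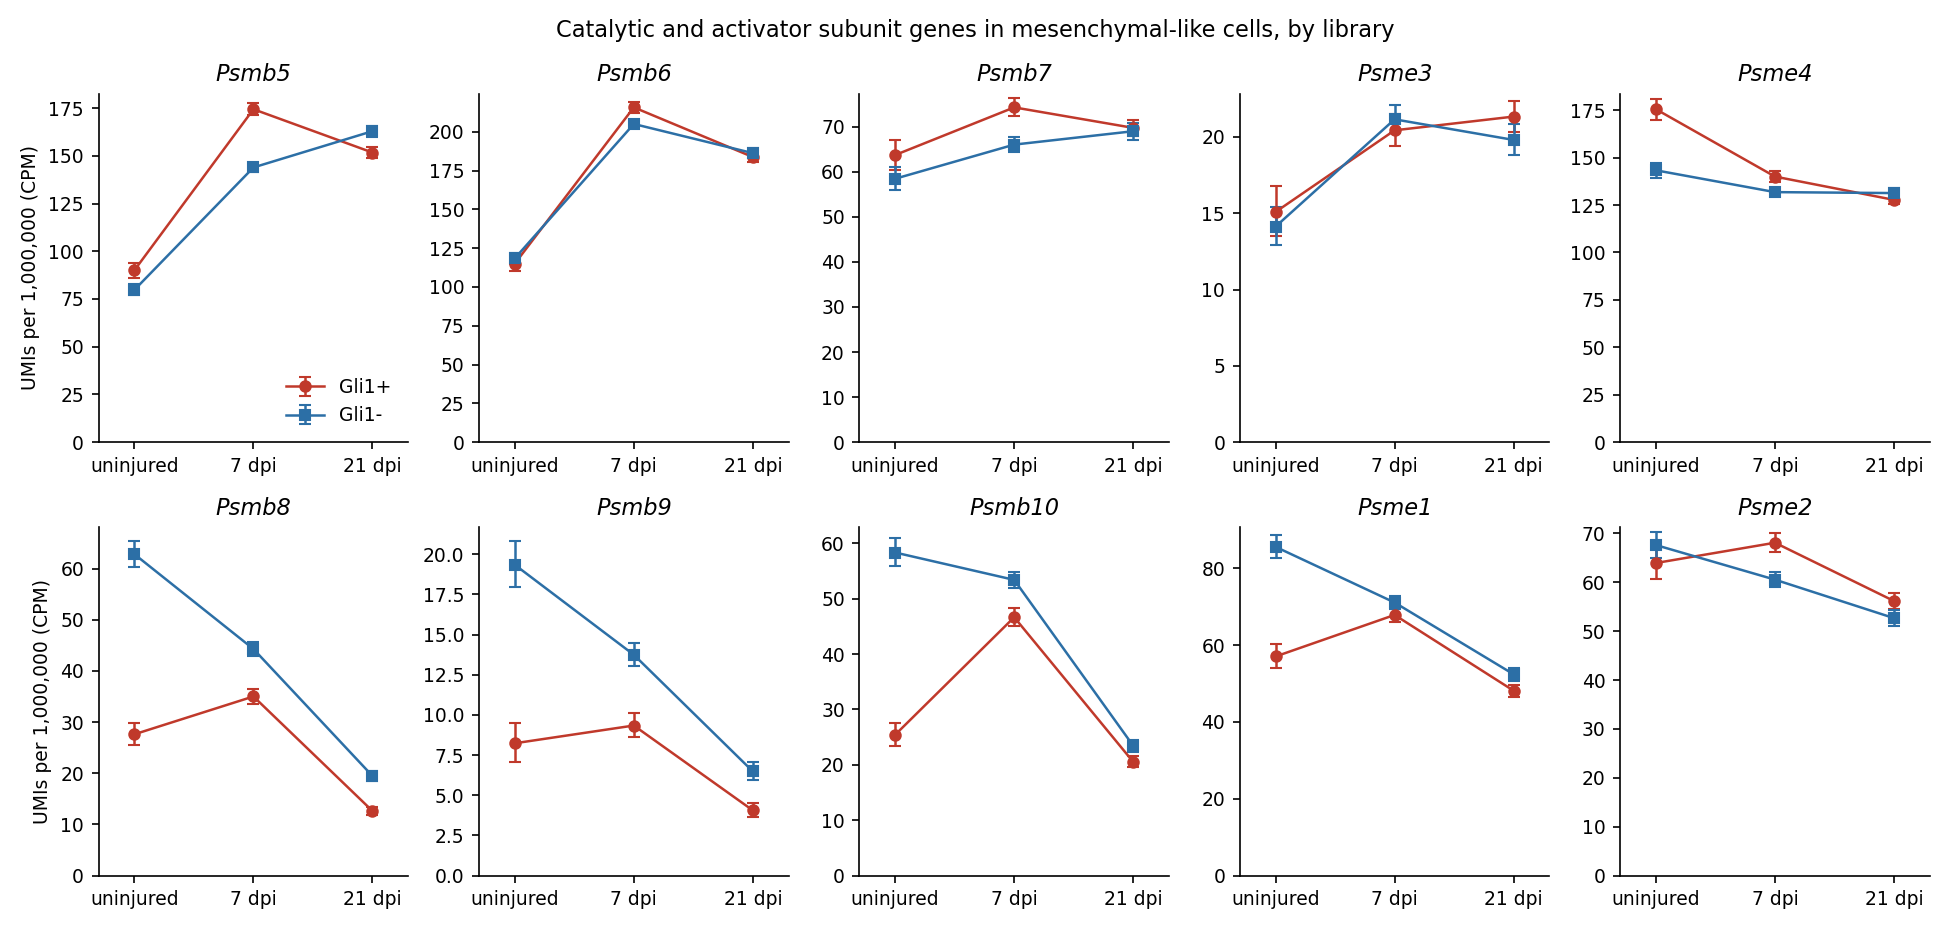
CPM of the constitutive (Psmb5, Psmb6, Psmb7) and immune (Psmb8, Psmb9, Psmb10) catalytic subunits in mesenchymal-like cells of the 6 libraries, with exact Poisson 95% intervals. Psmb8 stands at 12.6 and 19.5 CPM at 21 dpi in Gli1+ and Gli1- cells and Psmb5 at 152 and 163 CPM.

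At 21 dpi all 3 immune subunits were lower than uninjured by the fold in Gli1- cells, with log2 ratios of -1.69 (Psmb8), -1.58 (Psmb9) and -1.32 (Psmb10), where 23.1% of all genes were lower. In this Gli1- comparison sex cannot be told apart from time. In Gli1+ cells Psmb8 (-1.13) and Psmb9 (-1.02) were lower, with 28.8% of all genes lower, while Psmb10 had -0.31, which turns to 0.14 under trimmed-mean scaling. At 7 dpi in Gli1- cells the ratios were -0.50, -0.49 and -0.13, all within the fold (22.7% of all genes lower). In Gli1+ cells at 7 dpi Psmb10 was higher, by 0.88 (0.75 to 1.01), and Psmb8 had 0.34 (0.21 to 0.47) and Psmb9 0.18 (-0.06 to 0.43). At 21 compared with 7 dpi, where sex differs with time, all 3 were lower by the fold in both sorts, by -1.47, -1.20 and -1.18 in Gli1+ against -1.19, -1.08 and -1.19 in Gli1- cells.

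Among uninjured mesenchymal-like cells the immune subunits were lower in the Gli1+ than in the Gli1- sort. The uninjured Gli1+ over Gli1- log2 ratios were -1.19 for Psmb8, -1.23 for Psmb9 and -1.20 for Psmb10, so 3 of 3 were lower, where 7.98% of all genes were. At 7 dpi they were -0.34, -0.56 and -0.19, within the fold, and at 21 dpi -0.62, -0.68 and -0.19, with 2 of 3 lower, where 1.62% of all genes were. Uninjured mesenchymal-like cells of the sorts differ in sex, with 61.9% Xist-only and 23.4% Y-only cells among Gli1+ cells, against 0% and 69.3% among Gli1- cells. The make-up of the class differs as well. Of the separate clusterings, tenocyte-like cluster 7 held 681 of the 2230 Gli1+ cells and tenocyte-like cluster 10 held 195 of the 5859 Gli1- cells. Cluster 0 of each clustering, also tenocyte-like, held 41 Gli1+ and 86 Gli1- uninjured cells. In uninjured cells the share of the immune subunits in all 6 catalytic genes was 11.6% in Gli1+ cluster 7 and 10.7% in Gli1- cluster 10. It was 23.8% in Gli1+ cluster 5 and 39.8% in Gli1- cluster 3, both with Inmt and C7 among their leading genes. Among Y-only cells the share of the immune subunits in all 6 catalytic genes was 17.7% and 34.5%. The interferon response list moved in the same comparison, with 8 of its 14 genes lower in uninjured Gli1+ cells, and its part in the result was not tested.

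The immune share, the UMIs of the 3 immune subunits over those of all 6 catalytic genes, does not depend on the scaling of a library. Capture may differ between genes, so it is compared between cells and is not read as the make-up of the particle. In mesenchymal-like cells it was 18.6% (17.7 to 19.5), 16.4% (16 to 16.8) and 8.41% (8.12 to 8.71) in the Gli1+ sort against 35.4% (34.6 to 36.2), 21.2% (20.8 to 21.5) and 10.6% (10.2 to 10.9) in the Gli1- sort. The intervals of the 6 libraries do not overlap. As log2 ratios over uninjured these are -0.18 (-0.26 to -0.10) and -1.14 (-1.23 to -1.06) in Gli1+ against -0.74 (-0.78 to -0.70) and -1.74 (-1.80 to -1.69) in Gli1- cells. For Gli1- cells at 21 dpi sex cannot be told apart from time, and no ratio within a sex could be computed. Among cells with Y-linked and no Xist UMIs the ratio at 7 dpi was -0.15 in Gli1+ against -0.77 in Gli1- cells, and among cells with Xist and no Y-linked UMIs it was -1.12 in Gli1+ cells at 21 dpi. In the same cells 17 of 31 26S genes were higher in each sort at 7 dpi (20.3% of all genes in Gli1+ and 22.1% in Gli1-) and 12 of 31 in Gli1+ cells at 21 dpi (14%).

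The pairs of counterparts did not move alike. Psmb8 made up 23.5%, 16.7% and 7.68% of the UMIs of Psmb8 and Psmb5 in Gli1+ against 44.1%, 23.5% and 10.7% in Gli1- mesenchymal-like cells. For Psmb9 with Psmb6 the shares were 6.69%, 4.15% and 2.16%, and 14%, 6.28% and 3.36%. For Psmb10 with Psmb7 they were 28.5%, 38.6% and 22.7%, and 50%, 44.7% and 25.4%. The Psmb10 pair in Gli1+ cells was thus the exception, with its highest share at 7 dpi.

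Several other measures of the same mesenchymal-like cells differed between the libraries. Their order was not always that of the results above, and their part in them was not tested. The summed level of the 14 interferon response genes was 1014, 937 and 442 CPM among Gli1+ against 1288, 1053 and 471 CPM in Gli1- cells. Irf1, whose values are given below, was a large part of that sum and was highest before injury in both sorts. Cells with UMIs of cycling genes made up 0.762%, 20.9% and 2.66% of Gli1+ and 0.222%, 15.4% and 2.82% of Gli1- cells. Without them 17 of 31 26S genes were higher in Gli1+ cells at 7 dpi (18.7% of all genes higher) and 13 of 31 in Gli1- cells at 7 dpi (19.8%). The summed RNA of 6 leukocyte genes stood at 55.7 CPM in Gli1+ uninjured and at 0.852 to 1.59 CPM in the other mesenchymal-like cells, and at 3848 CPM in leukocyte-like cells. With 1.45% of leukocyte-like RNA taken away, Psmb8, Psmb9 and Psmb10 in Gli1+ uninjured cells were 24.4, 7.35 and 24.7 CPM and the immune share 17.5%. RNA of at least 2 epidermal markers was found in 99.9% of Gli1+ 7 dpi mesenchymal-like cells against 0.171 to 38.4% in the other libraries. Malat1, a nuclear RNA, was at 26304, 13351 and 19675 CPM among Gli1+ against 16803, 10563 and 18459 CPM in Gli1- cells.

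Other cell classes differed widely in immune share. Leukocyte-like cells of the Gli1+ uninjured library had 63.3% (62.6 to 64), 44.7 percentage points (43.6 to 45.8) above the mesenchymal-like cells of the same library. Endothelial-like cells had 64%, 58.8% and 31.2% in the Gli1+ sort against 63.9%, 61% and 24.8% in the Gli1- sort. Pericyte and smooth muscle-like cells had 18.4%, 31.4% and 16%, and 30.7%, 39.9% and 18%, highest at 7 dpi in both sorts. Schwann-like cells of the Gli1- sort had 30.7%, 27.4% and 23.1%. Skeletal muscle-like cells had 17.6%, 12.9% and 25.7% in the Gli1+ sort against 24.2%, 24.6% and 27.3% in the Gli1- sort. Epidermal-like cells had 5.49%, 15.4% and 11.3% in the Gli1+ sort and 5.88% in the Gli1- sort at 21 dpi. Summed leukocyte RNA in skeletal muscle-like cells was 116, 3.52 and 3.42 CPM (Gli1+) against 125, 504 and 293 CPM (Gli1-), and its part in their share was not tested.

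In leukocyte-like cells Psmb8 was at 223 CPM against 27.6 in mesenchymal-like cells of the same library (log2 ratio 3.01), Psmb9 at 61.2 against 8.24 (2.89) and Psmb10 at 51.5 against 25.4 (1.02), where 20.3% of all genes were higher. All genes here and in the next paragraph are those that passed the filter in mesenchymal-like cells. Genes found mainly in another class, such as the leukocyte genes, are therefore left out of these shares. The 26S genes had a median of -0.20 against -0.24 over all genes. Psmd14 was higher (0.76), and Psmd7 (-1.32), Psmb6 (-0.77) and Psma5 (-0.59) were lower, with 39.1% of all genes lower.

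In endothelial-like cells Psmb8 stood at 215, 280.5 and 78.1 CPM in the Gli1+ sort against 277, 323 and 66.7 CPM in the Gli1- sort. All 3 immune subunits were lower than uninjured at 21 dpi in both sorts, with medians of -1.46 and -2.02, where 26.5% and 20.3% of all genes were lower. The make-up of the Gli1- class differed between these times. Cluster 1 held 3342 uninjured and 801 21 dpi cells, cluster 7 (led by Selp and Sele) 133 and 816, and lymphatic cluster 13 131 and 228. The part of this make-up in the result was not tested. The 26S genes were higher in 25 and 15 of 31 in Gli1+ (27.4% and 19.2% of all genes higher) and 15 and 15 in Gli1- endothelial-like cells (21.5% and 18.7%) at 7 and 21 dpi. In pericyte and smooth muscle-like cells all 3 immune subunits were higher at 7 dpi in both sorts (medians 1.89 and 0.79; 26.5% and 18.4% of all genes higher). At 21 dpi 1 of 3 was higher in Gli1+ (median 0.56; 22.4% of all genes higher) and 2 of 3 lower in Gli1- cells (median -0.89; 28.3% of all genes lower). In the Gli1+ uninjured library these cells held 19 UMIs of Psmb8 and 14 of Psmb9. The summed leukocyte RNA was 106 CPM there against 1.19 to 3.87 CPM in the other pericyte and smooth muscle-like cells, and in endothelial-like cells 76.2 CPM against 2 to 10.4 CPM, and its part in these results was not tested. The 26S genes were higher in 18, 22, 10 and 11 of 31 in these cells (Gli1+ then Gli1-, 7 then 21 dpi), with 17.1% of all genes higher in the last.

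Leukocyte-like cells held 50.2% of all UMIs of the Gli1+ uninjured library but 80.1% of its immune subunit UMIs, and mesenchymal-like cells held 10%. In the Gli1- uninjured library endothelial-like cells held 20.9% of all UMIs and 49.8% of the immune subunit UMIs. Over whole libraries Psmb8 stood at 132, 38.2 and 16.5 (Gli1+) against 109.8, 58.4 and 27.3 CPM (Gli1-), Psmb9 at 38.2, 13 and 6.14 (Gli1+) against 43.2, 21 and 10.2 CPM (Gli1-) and Psmb10 at 40.6, 46.1 and 23.5 (Gli1+) against 74.5, 60.9 and 28.4 CPM (Gli1-). The constitutive genes stood at 81, 181 and 160.3 (Gli1+) against 87.3, 145 and 166 CPM (Gli1-) for Psmb5, 93.6, 216 and 191 (Gli1+) against 128, 206 and 192 CPM (Gli1-) for Psmb6 and 65.4, 78.9 and 75.2 (Gli1+) against 64.3, 67.9 and 74.1 CPM (Gli1-) for Psmb7. In Gli1+ cells Psmb8 is thus highest uninjured over the whole library and highest at 7 dpi in mesenchymal-like cells. At 7 dpi 2 of 3 immune subunits were lower than uninjured in each sort (30.9% of all genes lower in Gli1+ against 28.2% in Gli1-), and at 21 dpi 3 of 3 were (30.8% and 24.1%). The whole-library immune share, which uninjured is not lower in the Gli1+ sort, was 46.7%, 17% and 9.77% in Gli1+ against 44.9%, 25.1% and 13.2% in Gli1- cells. At 21 compared with 7 dpi 3 of 3 immune subunits were lower in each sort (medians -1.09 in Gli1+ and -1.10 in Gli1-; 9.79% and 7.87% of all genes lower) and 0 of 31 26S genes were past the fold (9.75% and 11.5% of all genes higher). For the 26S genes the whole-library counts were 20, 19, 15 and 15 of 31 higher (Gli1+ then Gli1-, 7 then 21 dpi), with 23.2%, 20.4%, 19.2% and 16.9% of all genes higher and medians of 0.81, 0.69, 0.56 and 0.57.

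Within mesenchymal-like cells the clusters were mostly of 1 time, so clusters and times largely coincide. Uninjured Gli1+ cells lay mostly in clusters 5 (led by Inmt and C7), 7 (tenocyte-like) and 4 (tendon stem cell-like), 7 dpi cells in 1 (led by Crabp1 and Tnn), 2 (tendon stem cell-like) and 11 (tenocyte-like), and 21 dpi cells in 0 (tenocyte-like), 4 and 9 (led by Saa3 and Mmp13). In the Gli1- sort, clustered separately, uninjured cells lay in 2 (tendon stem cell-like) and 3 (led by C7 and Inmt), 7 dpi cells in 4 (led by Crabp1 and Tnn), 5 (led by Sfrp2 and Cxcl13) and 3, and 21 dpi cells in 0 (tenocyte-like).

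The immune share also differed between clusters of 1 library. At 21 dpi in Gli1+ cells it was 15% (13.9 to 16.1) in cluster 4, 9.02% in cluster 0, 4.59% (3.12 to 6.48) in tenocyte-like cluster 7, 4.23% in the Saa3-led cluster 9 and 4.13% in cluster 18, left unnamed, with cartilage genes (Col2a1, Snorc, Col9a1, Col9a2, Col9a3, Col10a1 and Hapln1) and bone genes (Bglap, Bglap2 and Ibsp) among its 10 leading genes. Cluster 22 (led by Luzp2 and Gatm; 99 and 100 cells) had the highest share of these clusters at both injured times, 27.7% (21.8 to 34.2) at 7 dpi and 23% (17.3 to 29.7) at 21 dpi, and cluster 19 (led by Gpc5 and Hpse2) had 16.1% and 14.8%. At 7 dpi the share was 24.6% (23.7 to 25.5) in cluster 2, inside the interval of cluster 22, 13.9% in cluster 1 and 9.95% in cluster 11. In Gli1- cells the lowest value was in a Saa3-led cluster of 21 dpi cells (4.5%, cluster 11), followed by chondrocyte-like cluster 12 (7.22%) and tenocyte-like cluster 10 (10.7%, 11% and 7.96%). The Saa3-led clusters also had the highest summed 26S levels of the mesenchymal-like clusters, 5135 CPM among Gli1+ against 5175 CPM in Gli1- cells. Clusters were built on genes of the same cells, so these are descriptions.

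Where a cluster held at least 50 cells of an uninjured and an injured library, values can be set side by side within it. The summed 26S level was 2457 CPM uninjured and 3366 at 21 dpi in Gli1+ cluster 5, 2506 and 3398 in cluster 7, and 3111 and 3575 in cluster 4. In the Gli1- sort it was 2656, 3040 and 2896 CPM in cluster 2, 2659, 3401 and 3127 in cluster 3, 2818, 3997 and 3335 in cluster 9 (led by Trf and Tenm2), and 3123, 4035 and 3421 in cluster 10. It was higher after injury in these 7 clusters and lower in tenocyte-like cluster 0 of the Gli1- sort, with 4043 CPM in 86 uninjured cells against 3726 and 3785. The immune share was 23.8% and 14.4% in Gli1+ cluster 5, 11.6% and 4.59% in cluster 7, and 17.3% (15.6 to 19.1) and 15% (13.9 to 16.1) in cluster 4, where the intervals overlap. In the Gli1- sort it was 36.9%, 35.5% and 23% in cluster 2, 39.8%, 35.2% and 17% in cluster 3, 27.7%, 30.1% and 18.9% in cluster 9, and 12.2%, 30.1% and 11.2% in cluster 0.

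**Figure D3:**
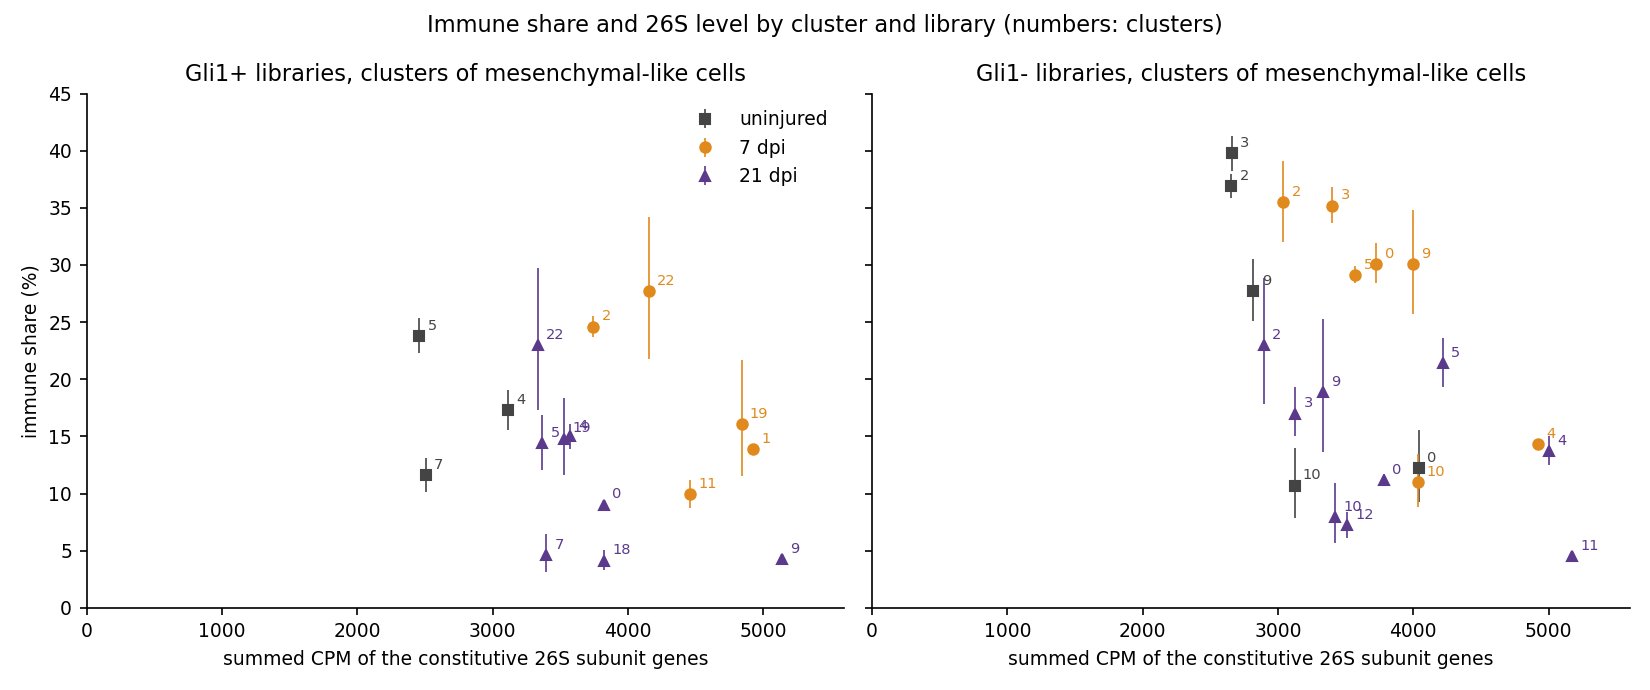
Immune share in percent of the mesenchymal-like clusters with at least 50 cells of a library, by sort and time, with exact binomial 95% intervals. The Luzp2-led cluster 22 is highest in injured Gli1+ cells (27.7% and 23%), though at 7 dpi its interval covers that of cluster 2. The Saa3-led clusters at 21 dpi lie at 4.23% and 4.5%.

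The activators that dock on the ends of the core differed between kinds. Psme1 and Psme2, which form the interferon-inducible PA28 ring, stood in mesenchymal-like cells at 57, 67.8 and 48.1 CPM among Gli1+ cells against 85.6, 71.1 and 52.4 CPM among Gli1- cells, and at 63.9, 68.1 and 56.1 (Gli1+) against 67.6, 60.5 and 52.6 CPM (Gli1-). Psme1 was lower by the fold only in Gli1- cells at 21 dpi (log2 ratio -0.71), with 0.25 and -0.24 in Gli1+ against -0.27 in Gli1- cells at the other times. Psme2 stayed within the fold with 0.09, -0.19, -0.16 and -0.36. Under trimmed-mean scaling the Gli1+ 21 dpi ratios turn to 0.20 for Psme1 and 0.26 for Psme2. Psme3, which forms the nuclear PA28 ring, stood at 15.1, 20.4 and 21.3 (Gli1+) against 14.1, 21.1 and 19.8 CPM (Gli1-), lowest in both uninjured libraries, with ratios of 0.44, 0.50, 0.58 and 0.49, of which the Gli1- 7 dpi value rounds to the fold. Psme4, the PA200 activator, stood at 176, 140.0 and 128 (Gli1+) against 143, 132 and 131 CPM (Gli1-), with ratios of -0.33, -0.46, -0.12 and -0.13, the last of which becomes 0.06 under trimmed-mean scaling.

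Over whole libraries Psme1 stood at 117, 73.2 and 54.2 (Gli1+) against 116, 79.7 and 60.4 CPM (Gli1-), Psme2 at 86.7, 81 and 65.3 (Gli1+) against 82.4, 64.8 and 55.6 CPM (Gli1-), Psme3 at 19.9, 21.1 and 23.1 (Gli1+) against 14.6, 21.1 and 20.4 CPM (Gli1-) and Psme4 at 169.6, 136 and 131 (Gli1+) against 143, 132 and 142 CPM (Gli1-). Psme1 was at 163 CPM in leukocyte-like against 57 CPM in mesenchymal-like cells of the Gli1+ uninjured library (log2 ratio 1.52), and Psme2 (0.67) and Psme3 (0.60) were also higher there. In endothelial-like cells Psme1 was at 212, 207 and 104.5 CPM among Gli1+ against 222, 235 and 97.1 CPM in Gli1- cells, lowest at 21 dpi.

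The 7 assembly chaperones, which guide the core and cap together, had 3, 3, 5 and 2 members higher (Gli1+ then Gli1-, 7 then 21 dpi), with medians of 0.56, 0.56, 0.64 and 0.47, where 20.1%, 13.6%, 21.6% and 18.3% of all genes were higher. Psmd10, a chaperone of the cap also called gankyrin, stood at 10.4, 26.5 and 18.9 (Gli1+) against 10.4, 26 and 20.3 CPM (Gli1-), with ratios of 1.35, 0.87, 1.32 and 0.97. Psmg1, which assembles the alpha ring, stood at 12.9, 28.7 and 19.5 (Gli1+) against 14.5, 28.3 and 18.5 CPM (Gli1-), with 1.15, 0.59, 0.97 and 0.36. Psmd9, another cap chaperone, had 0.82, 0.64, 0.59 and 0.44. All 3 were lowest in the uninjured library of their sort. Psmf1, an inhibitor that binds the core, stayed within the fold with 0.18, 0.22, 0.47 and 0.31.

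Of 13 measured other parts and regulators of the proteasome, Pomp, the maturation factor of the core, was higher in 3 of the 4 comparisons with uninjured mesenchymal-like cells, standing at 97.7, 205.5 and 156 CPM among Gli1+ against 106, 184 and 147 CPM in Gli1- cells. The list had 2 higher and 1 lower in Gli1+ cells at 7 dpi (Pomp, Txnl1; Ddi2), 1 and 0 at 21 dpi (Pomp), 2 and 1 in Gli1- cells at 7 dpi (Pomp, Txnl1; Ecpas) and 2 and 1 at 21 dpi (Adrm1, Sem1; Ecpas), with medians of -0.31, -0.24, -0.09 and 0.09. No comparison had a larger share of the list higher than of all genes (20.1%, 13.6%, 21.6% and 18.3%). Of 11 antigen processing genes, 9 passed the filter in mesenchymal-like cells, all but Tapbpl and Nlrc5. Of these 9, 2 were higher in 3 of the comparisons (Calr and Pdia3, chaperones of the endoplasmic reticulum) and 0 in Gli1+ cells at 21 dpi. In the 4 comparisons 2, 3, 4 and 4 were lower, with medians of -0.02, -0.48, -0.27 and -0.48. Over all genes 28.1%, 28.8%, 22.7% and 23.1% were lower in these comparisons. Among them Tap2, a subunit of the peptide transporter, stood at 17.9, 14.9 and 11.4 CPM among Gli1+ against 37.7, 15.6 and 10.7 CPM in Gli1- cells.

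Interferon response genes had 8 higher and 2 lower of 14 in Gli1+ cells at 7 dpi (median 0.87), 1 higher and 12 lower at 21 dpi (-1.28), 2 higher and 3 lower in Gli1- cells at 7 dpi (0.28) and 0 higher and 14 lower at 21 dpi (-1.58). Over all genes 20.1%, 13.6%, 21.6% and 18.3% were higher and 28.1%, 28.8%, 22.7% and 23.1% lower, so the Gli1- 7 dpi counts are near those of all genes. Irf1 and Stat2 were lower in all 4 comparisons. Irf1, a transcription factor of immune subunit genes, stood at 422, 137 and 234.5 CPM among Gli1+ against 493, 142 and 209.7 CPM in Gli1- cells, highest before injury. Cycling genes had 8, 7, 8 and 8 of 8 higher (medians 3.71, 1.36, 4.70 and 2.85).

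Over 32 sums of library and class with at least 50 cells, genes outside the family whose log2 level was among the most like that of the summed immune subunits were Irf7 (Pearson r 0.899), Gbp3 (0.875), Rsad2 (0.867) and Gbp7 (0.858). For the summed constitutive catalytic genes they were Chchd2 (0.917), Ndufa11 (0.903), Cox6b1 (0.903), Mrpl55 (0.894) and Mrpl28 (0.888). The sums share libraries and classes, so r is a description only.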

How the data were processed

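Libraries were made with Chromium 3′ v3 chemistry, and the values analysed are UMI counts per gene and cell in 1 matrix per library, as deposited by the authors. The submitters' processing notes name Cell Ranger 3.1.0, STAR and build mm10, while the header of the matrices names Cell Ranger 9.0.0, so the version used is uncertain and no coordinate was taken from the files. Reads that map to several genes are dropped by this counting, which can lower near copies such as Psme2 and Psme2b.

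Cells with at least 200 genes, 1000 UMIs and a log10 gene to UMI ratio of 0.7, at most 5% mitochondrial and at most 5% haemoglobin UMIs were kept. Simulated doublets scored by neighbours set the doublets removed, at 0.8% per 1000 cells (451 to 1160 cells per library); the score caught 41.3 to 62% of simulated doublets, so some remain. Each sort was clustered (2000 variable genes, 30 components, 20 neighbours, Leiden resolution 0.5), and clusters were named from marker lists or, for mesenchymal-like cells, also from at least 100 CPM of Pdgfra. A class or name was withdrawn where another held more of the 10 leading genes, and a name also where another held as many. This left unnamed a Gli1+ cluster with 704 CPM of Pdgfra and the Schwann marker Cdh19 among its leading genes (238, 166 and 78 cells; immune share 15.2%, 19.2% and 7.89%). Unnamed cells were 0.635 to 4.9% of a library.

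CPM are summed UMIs per 1000000 with exact Poisson 95% intervals, log2 ratios have binomial intervals from the unchanged counts, and shares have exact binomial intervals. Only where a gene had no UMIs on a side of a ratio were 0.5 UMIs added to both sides, and to the ratio alone. Members were counted past an absolute log2 ratio of 0.58 among genes with a mean of at least 5 CPM (11295 genes over whole libraries, 10678 in mesenchymal-like cells). The 10678 genes also served for the other cell classes. No test was made, as each group is 1 library. The named genes were the catalytic and activator genes in every library, the 3 highest and 3 lowest 26S genes of each mesenchymal-like comparison, members under 1 CPM, the gene lists and the 5 genes most like each trio. A gene among the most like and a gene list are not reported here. Other members with values (Psmd10, Psmg1, Psmd9, Psmf1) and list genes given with values were chosen after their values were seen. The members and lists were chosen with earlier results of these data known. Scripts were tested on simulated counts. The work used Python 3.11.15, numpy 2.4.6, pandas 2.3.3, scipy 1.17.1, scikit-learn 1.9.0, igraph 0.11.9, leidenalg 0.10.2, matplotlib 3.10.9 and, for trimmed-mean scaling only, edgeR 4.0.16 under R 4.3.3. Alternatives changed the scaling, the weight of each cell, the cell, doublet and low-level filters, the classes, the cycling cells and the sex of the cells.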

Additional observations from a re-analysis of the deposited data

Results flagged for a closer look

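In mesenchymal-like cells 4 members had opposite directions at 7 dpi over uninjured in the sorts, with every counting interval away from 0, that of Psme2 in Gli1+ cells only before rounding. The difference was not tested, since each group is 1 library. How many of all genes had such opposite directions was not counted, so the 4 members cannot be set against that share. Psmb10 had a log2 ratio of 0.88 (0.75 to 1.01) among Gli1+ cells against -0.13 (-0.20 to -0.05) among Gli1- cells. Psmb8 had 0.34 (0.21 to 0.47) and -0.50 (-0.58 to -0.43). Psme1 had 0.25 (0.16 to 0.34) and -0.27 (-0.33 to -0.21), and Psme2 had 0.09 (0.00 to 0.18) and -0.16 (-0.23 to -0.09). Under trimmed-mean scaling the Gli1- ratios were -0.02 for Psmb10, -0.40 for Psmb8, -0.16 for Psme1 and -0.05 for Psme2, and with this shift the intervals of Psmb10 and Psme2 reach 0. The uninjured levels of Psmb8 and Psmb10 were lower in Gli1+ (27.6 and 25.4 CPM) than in Gli1- cells (62.8 and 58.3 CPM), while at 7 dpi they were 35 and 46.6 CPM against 44.3 and 53.4 CPM.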

How the results depend on the processing

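None of the immune shares turned direction under the alternatives run, and no 26S gene was lower by the fold in any of them. Of the values, 87 stayed within 1.5 times of a count or within the counting interval of a share, and 19 moved past that. Taking all genes with at least 1 UMI changed only the share of all genes, so the 26S counts of that setting stayed by construction. The count of 26S genes higher in mesenchymal-like cells ranged over all settings from 17 to 26 (Gli1+ 7 dpi), 10 to 28 (Gli1+ 21 dpi), 13 to 21 (Gli1- 7 dpi) and 5 to 19 (Gli1- 21 dpi). The share of all genes higher in these settings was 18.7 to 29.7%, 12.5 to 31.1%, 19.6 to 26.3% and 17.2 to 25.1%. With trimmed-mean scaling the count was 28 in Gli1+ cells at 21 dpi (31.1% of all genes higher), and over whole libraries 29 in Gli1+ cells at 21 dpi (35.8%) and 24 in Gli1- cells at 7 dpi (26.8%). That scaling moved log2 ratios over uninjured by 0.28 and 0.45 in Gli1+ and by 0.11 and 0.18 in Gli1- mesenchymal-like cells. With every cell weighted the same, 5 were higher in Gli1- cells at 21 dpi both in mesenchymal-like cells (17.2% of all genes higher) and over the whole library (14.9%), so that 5 of 31 is near the level of all genes. The log2 ratio of the immune share over uninjured moved to -0.10 in Gli1+ cells at 7 dpi without cycling cells and, in an alternative chosen after seeing the data, to -0.10 with leukocyte RNA subtracted. In Gli1+ cells at 21 dpi it was -0.94 with equal weights, -0.90 with classes set per cell from markers and -1.06 with leukocyte RNA subtracted. In Gli1- cells at 7 dpi it was -0.79 at double the doublet rate, -0.55 with equal weights, -0.60 without cycling cells and -0.68 with classes per cell, and at 21 dpi -1.81, -1.52 and, with classes per cell, -1.66. The gap between leukocyte-like and mesenchymal-like cells was 43 points over all barcodes and 46.6 points with classes per cell. The cause of these moves was not tested. Cells of 1 sex were too few in 5 of the pairings of a comparison with a sex, classes per cell left 6 cells in Gli1+ 7 dpi, and the Gli1- sort had no leukocyte-like cells, so these were not run. No paired analysis of the sorts over the times was made, each condition is 1 library and no result comes from a test. The sorts of a time are given side by side instead.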
